A study of Mus musculus with 60 samples.

Results

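The subject is the liver of mice of the INS line 96 hours after the lowest dose of 2,3,7,8-tetrachlorodibenzo-p-dioxin (TCDD) used in the study. The comparison takes the 4 arrays titled INS at 125 µg/kg TCDD and the 5 arrays titled INS corn oil, 9 of the 60 arrays of the series, over all 21115 gene features. It was singled out as the smallest response in the series, so the size of the response is given as a description. The study gave adult transgenic mice of 3 lines, named rWT, DEL and INS, 1 oral dose of TCDD at 125, 250, 500 or 1000 µg/kg in corn oil, or corn oil alone, and measured liver RNA of each animal on an expression array.

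All mice were labelled male, on the C57BL/6J background and 12 to 15 weeks old, and were housed singly. Of the 22 INS mice, 5 received corn oil, 4 each received 125, 250 or 500 µg/kg, and 5 received 1000 µg/kg. The other lines were brought in for comparison, DEL with 5 mice given corn oil and 4 at each dose, and rWT with 5 given corn oil and 3, 3, 4 and 2 at the doses in rising order. Of the rWT arrays, 4 went against the male label, 3 of the 5 in corn oil and 1 at 500 µg/kg, with Xist at 10.7 to 11.4 and the Y-linked gene Eif2s3y at 2.73 to 3.37. Results from a fit that holds rWT arrays are therefore given with these 4 and on the 56 arrays left without them. The labels state no more of the genotypes than that each line carries a variant of the aryl hydrocarbon receptor (AHR). From general knowledge of these lines, rWT, DEL and INS are forms of the rat receptor, the latter ones arising by alternative splicing in a rat strain resistant to TCDD, placed in mice without their own receptor. The sources used here do not name the promoter of the transgene.

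AHR is a transcription factor that waits in the cytosol with the chaperone HSP90 and its co-chaperones until a ligand such as TCDD binds. It then enters the nucleus, pairs with ARNT and binds DNA at the core letters GCGTG of the xenobiotic response element. In the liver its targets include cytochromes P450 of family 1, conjugating and reducing enzymes, and its own repressors Ahrr and Tiparp.

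The values are log2 expression values, 1 feature per gene. On the 9 arrays the array mean was 5.66 to 5.74, and albumin (Alb), the main hepatocyte secretory product, read 13.48 to 13.66. The mean of 12 hepatocyte markers was 12.88 to 12.97 on the corn oil arrays and 12.81 to 12.91 on the treated arrays. On these 9 arrays Xist read 2.50 to 2.80 and Eif2s3y 8.51 to 9.23, as labelled for males. Each array came from 1 animal, and depth does not apply to arrays, so the number of animals limits the precision.

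At 125 µg/kg, 16 of 21115 features were called at an adjusted p under 0.05 (0.0758%), all higher than in corn oil and 0 lower. At an unadjusted p under 0.05, 651 features were higher (3.08%) and 623 were lower (2.95%). Of the 16, 15 carry a gene symbol, and 1 has no symbol in the annotation used and is not described. The 15 are Cyp1b1, Cyp1a1, Nptx1, Cyfip2, Tuba8, Tiparp, Ahrr, Psat1, Ugt1a9, Nqo1, Fmo2, Slc46a3, Cdh18, Cyp1a2 and Poli. The largest estimate over all 21115 features was 6.63 and was not that of a named gene. Among the 15 the largest was 5.88, for Cyp1b1. For each of the 16, all 4 treated arrays lay above all 5 corn oil arrays, an arrangement found for 245 features (1.16%), with 250 in the opposite arrangement (1.18%). The estimate was 2-fold or more for 13 of the 16. The plot of effect against level shows these genes above the median over all features of -0.026. A 2-fold or larger estimate in either direction was found for 61 features, most of them not called. The smaller called estimates are therefore not set apart by size alone.

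**Figure D1:**
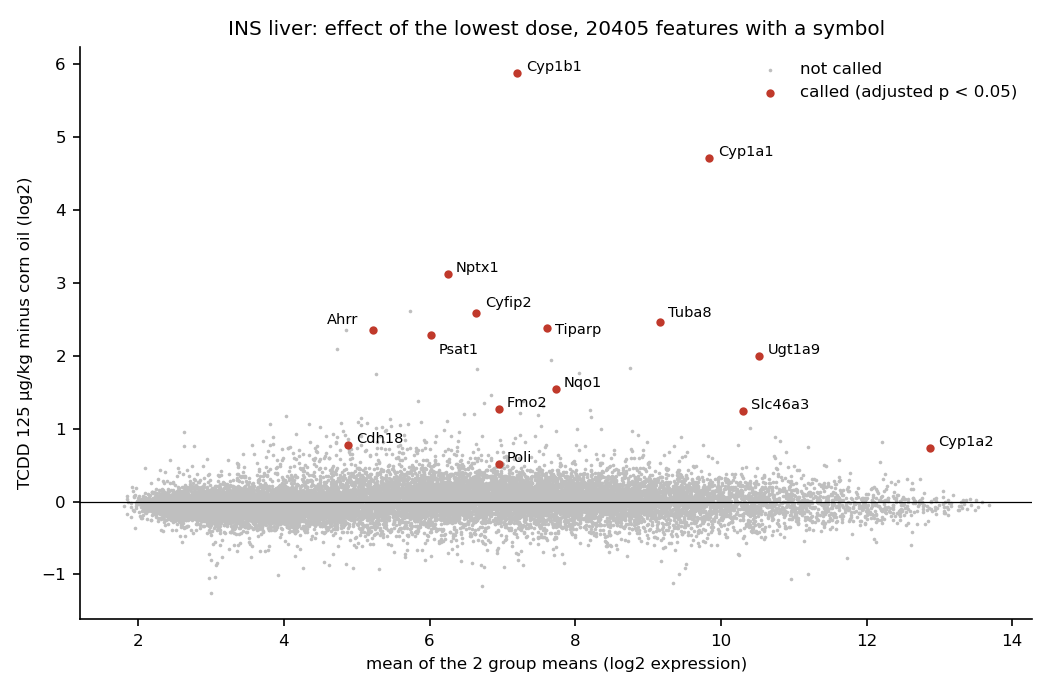
Effect of 125 µg/kg TCDD in INS liver (vertical axis, log2 difference from corn oil) against the mean of both group means (horizontal axis, log2 expression), 1 point for each of the 20405 features with a symbol. The 15 called genes with a symbol are in red and named, and all of them lie above 0, from 0.52 for Poli to 5.88 for Cyp1b1.

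Promoter windows are shown for the called genes whose window holds the AHR core letters, since those letters are where the receptor is known to bind. RefSeq windows on GRCm38.p6, 250 bases before to 50 bases after the annotated start, were on hand for 13 of the 15 genes, all but Nptx1 and Poli. The letters GCGTG, or CACGC for the other strand, were present in the windows of 5 of these 13 genes (38.46%), against 9500 of 27025 genes (35.15%) and 10639 of 32851 windows (32.39%). The share in the called genes was thus near that of all genes. Below are the 250 bases before the start on the gene's own strand, with the core letters in capitals. The windows lie on GRCm38.p6 at chr9:57697363-57697612 (strand +, Cyp1a1), chr17:79715062-79715311 (strand -, Cyp1b1), chr3:65528197-65528446 (strand +, Tiparp), chr13:74292332-74292581 (strand -, Ahrr) and chr19:15925060-15925309 (strand -, Psat1).
Cyp1a1: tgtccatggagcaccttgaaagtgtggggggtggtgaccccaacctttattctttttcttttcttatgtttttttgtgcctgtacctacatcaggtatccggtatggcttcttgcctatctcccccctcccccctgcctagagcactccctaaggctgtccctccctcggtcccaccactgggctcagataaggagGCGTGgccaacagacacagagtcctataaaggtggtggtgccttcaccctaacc
Cyp1b1: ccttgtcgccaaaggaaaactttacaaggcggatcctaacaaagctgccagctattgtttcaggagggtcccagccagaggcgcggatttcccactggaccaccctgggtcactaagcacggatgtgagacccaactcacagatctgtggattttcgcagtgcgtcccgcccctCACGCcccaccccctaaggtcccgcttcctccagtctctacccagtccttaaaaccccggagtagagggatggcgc
Tiparp: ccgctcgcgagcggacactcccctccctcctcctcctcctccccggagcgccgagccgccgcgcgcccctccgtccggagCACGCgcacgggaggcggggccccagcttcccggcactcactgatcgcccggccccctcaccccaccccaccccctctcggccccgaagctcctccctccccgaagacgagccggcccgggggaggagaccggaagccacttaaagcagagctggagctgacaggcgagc
Ahrr: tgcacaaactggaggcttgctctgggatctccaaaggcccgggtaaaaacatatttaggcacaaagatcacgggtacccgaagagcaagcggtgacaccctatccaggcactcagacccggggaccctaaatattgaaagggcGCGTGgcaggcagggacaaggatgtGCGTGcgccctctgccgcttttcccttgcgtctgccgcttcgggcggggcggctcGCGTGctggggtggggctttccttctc
Psat1: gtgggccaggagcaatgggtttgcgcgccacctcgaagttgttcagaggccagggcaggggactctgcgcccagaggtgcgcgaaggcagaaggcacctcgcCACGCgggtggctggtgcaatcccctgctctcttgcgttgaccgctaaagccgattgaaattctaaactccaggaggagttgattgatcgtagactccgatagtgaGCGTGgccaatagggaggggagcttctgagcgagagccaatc

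The first base of the core stood at position -54 for Cyp1a1, at -76 for Cyp1b1 and at -170 for Tiparp, counted back from the start. Ahrr held it at -107, -82 and -27. Psat1 held it at -148 and -42, and its other annotated start at 15924573 to 15924872 on chromosome 19 held it at -65 and -45. No matches overlapped each other. The windows of Cyp1a2, Nqo1, Cyfip2, Tuba8, Ugt1a9, Fmo2, Slc46a3 and Cdh18 did not hold the letters, which says nothing about sites elsewhere.

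The family 1 cytochromes P450, which oxidise planar aromatic compounds and are the classic readout of AHR, were all higher. Cyp1a1 (chromosome 9) read 7.59, 7.07, 6.88, 7.94 and 7.93 on the 5 corn oil arrays and 11.70, 12.46, 12.32 and 12.32 on the 4 treated arrays. The groups were far apart, with treated replicate 1 lowest among the treated arrays. The difference was 4.72 ± 0.22 (log2, SE), or 26.3-fold, with an adjusted p of 2.55e-11 (limma). Cyp1b1 (chromosome 17), which also acts on oestrogens, read 4.19, 4.30, 4.52, 4.11 and 4.20 in corn oil and 9.16, 11.17, 9.95 and 10.31 after TCDD. Its corn oil arrays were tight and its treated arrays spread over more, with replicate 1 again the lowest. The difference was 5.88 ± 0.38, or 59.0-fold (adjusted p 5.51e-09).

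Cyp1a2 (chromosome 9), the form made constitutively by hepatocytes, read 12.55, 12.39, 12.27, 12.64 and 12.65 in corn oil and 13.26, 13.34, 13.21 and 13.13 after TCDD. The groups did not overlap, but its difference was only 0.73 ± 0.09, or 1.66-fold (adjusted p 0.000619). Cyp1a2 started near the top of the array's range, whose maximum on the INS arrays was 13.6 to 13.7, and whether this bounds its estimate was not tested.

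The feedback genes of the pathway were also higher. Ahrr (chromosome 13), a repressor that competes with AHR for ARNT, read 4.02, 3.88, 4.14, 4.21 and 3.95 in corn oil and 5.26, 7.45, 6.51 and 6.36 after TCDD. Treated replicate 1 was the lowest and replicate 2 the highest, and all 4 were above corn oil. The difference was 2.35 ± 0.43, or 5.11-fold (adjusted p 0.0282). Tiparp (chromosome 3), an ADP-ribosyltransferase that curbs AHR, read 6.10, 6.08, 6.95, 6.63 and 6.33 in corn oil and 7.69, 9.71, 9.25 and 8.56 after TCDD. It showed the same order of treated arrays at its ends, with a difference of 2.38 ± 0.36, or 5.21-fold (adjusted p 0.00588).

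The receptor complex itself did not pass the test. Ahr differed by -0.09 ± 0.13 and Arnt, its DNA-binding partner, by 0.18 ± 0.09. Arnt2, a relative of Arnt, differed by -0.06 ± 0.08, and Ptges3, the co-chaperone p23 of the cytosolic complex, by 0.31 ± 0.19. The adjusted p of these 4 genes was 0.844 to 0.952. Whether the mouse Ahr feature reads the transgene was not tested. Nfe2l2, which encodes the antioxidant regulator NRF2 and is an AHR target, read 9.78, 10.03, 9.63, 9.74 and 10.07 in corn oil and 10.55, 10.74, 10.70 and 10.53 after TCDD. Its groups did not overlap and it differed by 0.78 ± 0.21, yet it missed the threshold (adjusted p 0.382) and passed it when all 60 arrays, or the 56, were fitted together (adjusted p 0.0325 and 0.0271).

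Among the conjugating and reducing enzymes, Nqo1 and Ugt1a9 rose. Nqo1 is in the list of the AHR core battery used below, and Ugt1a9 is in that of phase II conjugation enzymes. Nqo1 (chromosome 8), a quinone reductase, read 6.62, 6.46, 7.93, 6.80 and 6.99 in corn oil and 8.07, 8.64, 8.82 and 8.49 after TCDD. Corn oil replicate 3 came close to treated replicate 1 without passing it. The difference was 1.55 ± 0.28, or 2.92-fold (adjusted p 0.0282). Ugt1a9 (chromosome 1), a glucuronosyltransferase, read 10.10, 8.93, 8.90, 9.51 and 10.18 in corn oil and 10.95, 11.79, 11.54 and 11.80 after TCDD, a difference of 1.998 ± 0.29, or 3.99-fold (adjusted p 0.00304).

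The Ugt1a genes share their last exons, so the features of different members may not be told apart. Ugt1a7c read 5.46, 5.99, 5.95, 5.01 and 6.32 in corn oil and 7.09, 8.90, 7.09 and 7.19 after TCDD. All treated arrays were above corn oil, with replicate 2 far above the rest, and the difference of 1.82 ± 0.54 did not pass the test (adjusted p 0.468). Ugt1a1, Ugt1a5 and Ugt1a6b differed by 0.27 ± 0.14, 0.48 ± 0.29 and 0.13 ± 0.22, with overlapping groups. Aldh3a1, an aldehyde dehydrogenase that AHR induces in many cell types, read 3.29 to 3.62 in corn oil and 3.11 to 3.88 after TCDD, a difference of 0.06 ± 0.13 (adjusted p 0.970).

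The remaining called genes lie outside the core battery. Nptx1 (chromosome 11), a secreted pentraxin known from synapses, read 4.66, 4.70, 4.49, 4.90 and 4.66 in corn oil and 6.45, 9.42, 7.41 and 7.97 after TCDD. It was even in corn oil and uneven after TCDD, and its difference of 3.13 ± 0.51, or 8.75-fold, was the largest outside family 1 among the named genes (adjusted p 0.0106). Cyfip2 (chromosome 11), a subunit of the WAVE complex that drives actin assembly, read 6.04, 5.24, 5.85, 4.46 and 5.18 in corn oil and 6.99, 8.92, 7.66 and 8.17 after TCDD. It differed by 2.58 ± 0.41, or 5.99-fold (adjusted p 0.00917). Tuba8 (chromosome 6), an alpha-tubulin, read 8.65, 7.08, 8.50, 7.37 and 8.05 in corn oil and 9.86, 11.21, 10.40 and 10.13 after TCDD. It differed by 2.47 ± 0.43, or 5.54-fold (adjusted p 0.0210), and as with Nptx1 and Cyfip2 its lowest treated value was replicate 1 and its highest replicate 2.

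Psat1 (chromosome 19) encodes an enzyme of the pathway that makes serine from a glycolytic intermediate. It read 4.62, 4.48, 5.69, 4.71 and 4.85 in corn oil and 6.66, 6.86, 7.65 and 7.46 after TCDD. It differed by 2.29 ± 0.37, or 4.88-fold (adjusted p 0.0106). Fmo2 (chromosome 1), a flavin-containing monooxygenase, read 6.06, 6.60, 5.88, 6.12 and 6.90 in corn oil and 7.49, 7.54, 7.85 and 7.47 after TCDD. The treated arrays were the more even of the groups, and the difference was 1.27 ± 0.24, or 2.42-fold (adjusted p 0.0482). Slc46a3 (chromosome 5), a lysosomal transporter, read 9.78, 9.53, 9.18, 9.88 and 10.04 in corn oil and 10.34, 11.42, 10.62 and 11.32 after TCDD, a difference of 1.24 ± 0.23, or 2.37-fold (adjusted p 0.0282).

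The smallest called differences were those of Cdh18 and Poli. Cdh18 (chromosome 15), a cadherin, read 4.72, 4.41, 4.28, 4.39 and 4.65 in corn oil and 4.88, 5.31, 5.57 and 5.32 after TCDD, a difference of 0.78 ± 0.14, or 1.72-fold (adjusted p 0.0282). Poli (chromosome 18), a DNA polymerase that copies past lesions, read 6.70, 6.75, 6.60, 6.65 and 6.74 in corn oil and 7.27, 7.23, 7.22 and 7.12 after TCDD. Poli was even within each group and differed by 0.52 ± 0.09, or 1.43-fold (adjusted p 0.0282).

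Treated replicate 1 gave the lowest treated value for 12 of the 15 named genes, and replicate 2 gave the highest for 9. The 3 features next below the threshold, named after their values were seen, were Pde4b at -0.71 ± 0.14 (adjusted p 0.0616), Galnt7 at 0.72 ± 0.14 (adjusted p 0.0621) and Smagp at -0.91 ± 0.18 (adjusted p 0.0621). Without treated replicate 4, 3 or 2, the features called numbered 6, 9 and 8, and without corn oil replicate 4 or 2 they numbered 9 and 10. In a fit of the 9 arrays alone, 5 features were called. Cyp1a1 and Cyp1b1 were called under each of the 18 settings run. Tiparp, Ugt1a9 and Cyp1a2 were called in each of the 9 omissions of an array, and the other 10 named genes lost theirs in some. Poli lost it in 9 of the 9 omissions, Ahrr and Fmo2 in 8, Nqo1 and Slc46a3 in 7, Cdh18 in 6 and Tuba8 in 5, while Nptx1, Cyfip2 and Psat1 lost it in 2.

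With all 60 arrays in the fit, 17 features were called at this dose, all higher, and 11 of these were among the 16. The gain of Nfe2l2 is given above. The other named genes gained, chosen after their values were seen, were Selenbp1 at 1.004 (adjusted p 0.00122), Insl6 at 2.09 (adjusted p 0.00299), Nup155 at 0.82 (adjusted p 0.0297) and Exoc3 at 0.78 (adjusted p 0.0411). The genes lost were Poli, Nqo1, Psat1, Fmo2 and Cdh18, with adjusted p values of 0.0555, 0.0873, 0.135, 0.465 and 0.515. On the 56 arrays, 28 features were called, 26 higher and 2 lower, and 14 of the 16 were among them. Poli, Nqo1 and Psat1 then passed (adjusted p 0.0407, 0.00459 and 0.000498), and Fmo2 and Cdh18 did not (adjusted p 0.0750 and 0.347).

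The levels at the higher doses in the same line were set beside those at 125 µg/kg. All 17 treated INS arrays lay above the 5 corn oil arrays for each of the 15 named genes, as the plot of levels by array shows. The genes were chosen for this separation at 125 µg/kg, so only the arrays at the higher doses could have gone otherwise. Those were set against the same corn oil arrays that took part in the choice. The dose contrasts with corn oil share the same 5 corn oil arrays and are therefore given side by side. Cyp1a1 differed from corn oil by 4.72, 4.93, 4.80 and 4.96 at 125, 250, 500 and 1000 µg/kg. Cyp1b1 differed by 5.88, 6.13, 6.36 and 6.63, Ahrr by 2.35, 2.72, 3.04 and 3.47, and Tiparp by 2.38, 2.71, 2.83 and 3.29. Nptx1 differed by 3.13, 3.78, 3.86 and 4.33. For Cyp1a2 the differences were 0.73, 0.84, 0.82 and 0.85, and for Ugt1a9 they were 1.998, 2.12, 2.22 and 2.20. Poli differed by 0.52, 0.16, 0.44 and 0.41, and Cdh18 by 0.78, 0.58, 0.57 and 0.56.

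**Figure D2:**
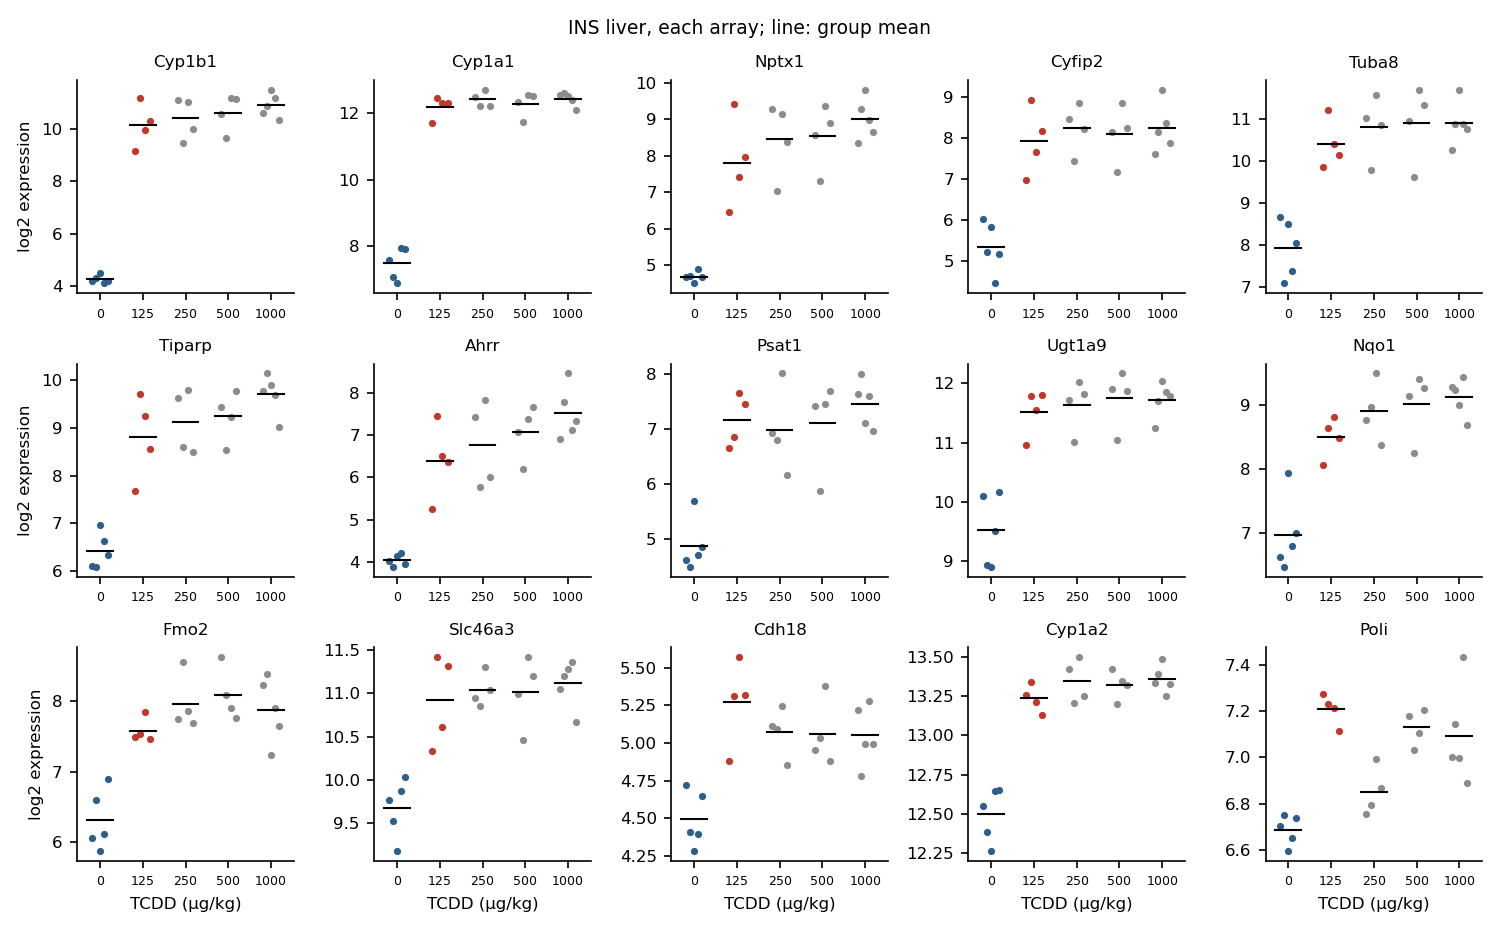
Log2 expression (vertical axes) of the 15 named genes on each of the 22 INS arrays by TCDD dose in µg/kg (horizontal axes, 0 being corn oil), with the group mean as a line. Corn oil is blue, 125 µg/kg red and the higher doses grey, and in each panel all treated points lie above all corn oil points. For the red points this follows from how the genes were chosen.

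The direct test of 1000 against 125 µg/kg by limma called none of the 15 genes (adjusted p 0.510 to 0.877). Its estimates leave out the corn oil arrays, but its SE and p values use the spread of all 22 INS arrays. The test reuses the 125 µg/kg arrays, by whose high values these genes were chosen. The estimates and counts for the 15 genes are therefore not independent of that choice, which can lower the estimates. The estimates were above 0 for 13 genes and below 0 for 2, and the ranges of both doses overlapped for all 15. At an unadjusted p under 0.05, 4 of the 15 passed, against 8.07% of all features. These were Ahrr at 1.12 ± 0.43, Nptx1 at 1.20 ± 0.51, Tiparp at 0.90 ± 0.36 and Nqo1 at 0.63 ± 0.28. Cyp1a1 differed by 0.24 ± 0.22 and Cyp1a2 by 0.12 ± 0.09. A difference that misses the threshold does not show that the doses act alike.

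Over all features, 1000 against 125 µg/kg gave 1 call (0.00474%), lower at the higher dose. It was Nr1d1 (chromosome 11), a repressor of the circadian clock. Nr1d1 read 11.22, 10.79, 10.56 and 11.05 at 125 µg/kg, within the 10.52 to 11.47 of corn oil, and 9.14, 9.41, 9.34, 9.11 and 9.35 at 1000 µg/kg. The groups did not overlap, and the difference was -1.64 ± 0.25 (adjusted p 0.0361). The call was lost after quantile normalization, with array weights and in 6 of 9 omissions of 1 array, those of replicates 1 and 4 at 125 µg/kg and of replicates 1, 2, 3 and 5 at 1000 µg/kg (adjusted p up to 0.345), the estimate lying at -1.75 to -1.53. Other genes of clock output split the arrays of a dose. Dbp, a transcription factor under clock control, read 9.90 and 9.78 on replicates 1 and 2 at 1000 µg/kg but 5.63, 5.71 and 5.46 on replicates 3 to 5, and 10.48, 10.04, 9.63 and 9.43 at 125 µg/kg. Ciart, a circadian repressor, read 8.50 and 8.84 against 5.30, 6.08 and 5.48 on the same arrays at 1000 µg/kg. Both split in the same way at 250 and 500 µg/kg, and the part of this split in the Nr1d1 difference was not tested. The corn oil arrays were uneven too, with Dbp at 6.14, 9.19, 9.25, 10.13 and 10.33. Ciart read 5.21, 6.85, 5.94, 7.61 and 7.55 in corn oil and 8.29, 8.72, 7.08 and 7.32 at 125 µg/kg. Of 18 circadian clock genes, 0 were called at 125 µg/kg against corn oil. Their median was 0.22, and 0.03 to 0.32 when 1 array was left out. At 125 µg/kg against corn oil, Nr1d1 differed by -0.08 ± 0.25. The slope on log2 dose from 250 to 1000 µg/kg was estimated by limma from arrays outside the comparison of the lowest dose. Its p values use the spread of all 22 INS arrays, those of that comparison included. The slope called 0 features, with 311 higher (1.47%) and 817 lower (3.87%) at an unadjusted p under 0.05. For the 15 named genes the slope was above 0 for 13 and below 0 for 2, with adjusted p values of 0.918 or more.

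The response at 125 µg/kg was then placed among the 12 contrasts of a dose with corn oil, from 1 fit over the 60 arrays. INS had 17, 30, 49 and 216 features called from the lowest dose to the highest. DEL had 3628, 4747, 5797 and 5709, and rWT had 5039, 6523, 4950 and 6018. On the 56 arrays INS had 28, 54, 77 and 344, DEL 4145, 5250, 6198 and 6135, and rWT 5178, 6486, 5293 and 6229. In the fit of 60, the rWT contrasts mix TCDD with the 3 corn oil arrays that went against their label. The number with a 2-fold or larger estimate was 61 for INS at 125 µg/kg, against 82 to 146 at its higher doses and 1382 at the same dose in DEL. Both measures put INS at 125 µg/kg lowest of the 12, on 60 and on 56 arrays. The median absolute difference over all features was 0.107 there, against 0.0977 in INS at 500 µg/kg, so by that measure it was not the lowest. The median residual SD was 0.218 in INS, 0.224 in DEL and 0.234 in rWT.

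**Figure D3:**
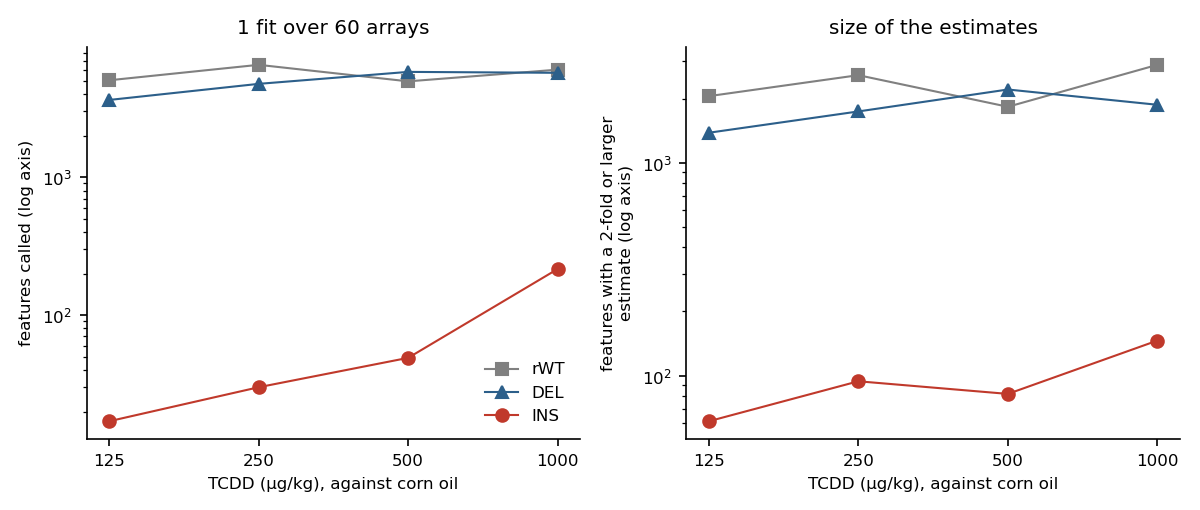
Number of features called against corn oil (left, log axis) and number with a 2-fold or larger estimate (right, log axis) by TCDD dose in µg/kg for rWT, DEL and INS, each from 1 fit over 60 arrays. INS at 125 µg/kg is the lowest point in both panels, with 17 and 61 features.

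The effect at 125 µg/kg was tested for a difference between INS and DEL, with both lines in 1 fit. A higher difference in INS was called for 443 features (2.1%) and a lower one for 613 (2.9%), together 5% of all features. That split depended on the scaling, being 811 and 481 after centring each array on its median, which moved the median of all features from 0.00 to 0.17, and 605 and 607 after quantile normalization. For the 15 named genes, the estimate was smaller in INS for 13 and larger for 2, and the difference between lines was called for Ahrr, Tiparp and Nqo1.

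Ahrr rose by 4.58 ± 0.35 in DEL, against 2.35 ± 0.35 in INS, a difference of -2.23 ± 0.50 (adjusted p 0.00643). Its treated arrays read 8.95, 8.84, 8.34 and 9.05 in DEL and 5.26 to 7.45 in INS. The corn oil means were 4.21 in DEL and 4.04 in INS, and these levels also carry the offset between lines. On the corn oil arrays the mean over all features was 6.23 to 6.26 in DEL and 5.66 to 5.72 in INS. Tiparp rose by 3.98 ± 0.30 in DEL, and the lines differed by -1.59 ± 0.42 (adjusted p 0.0195). Nqo1 rose by 3.33 ± 0.31 in DEL, and the lines differed by -1.78 ± 0.44 (adjusted p 0.0131). Psat1 rose by 4.12 ± 0.40 in DEL and the difference between lines lay just outside the threshold, at -1.83 ± 0.57 (adjusted p 0.0509). Ugt1a7c, not called in INS, rose by 4.81 ± 0.60 in DEL, a difference of -2.99 ± 0.85 (adjusted p 0.0311).

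The difference between lines did not pass the test for the P450 genes. Cyp1a1 rose by 4.84 ± 0.20 in DEL and 4.72 ± 0.20 in INS, a difference of -0.13 ± 0.28 (adjusted p 0.914). Cyp1a2 rose by 0.76 ± 0.08 in DEL and differed between lines by -0.03 ± 0.11 (adjusted p 0.956). In DEL the treated arrays read 12.84 to 13.06 for Cyp1a1 and 13.47 to 13.57 for Cyp1a2. The maximum on those arrays was 13.64 to 13.69, and whether this bounds the rise in DEL was not tested. Cyp1b1 rose by 6.72 ± 0.33 in DEL, with a difference of -0.84 ± 0.47 (adjusted p 0.406). Nptx1, Cyfip2 and Tuba8 differed by -1.78 ± 0.69, -1.22 ± 0.49 and -1.31 ± 0.51 (adjusted p 0.153 to 0.168). Slc46a3 at 0.35 ± 0.35 and Poli at 0.33 ± 0.16 had the larger estimates in INS. The 15 genes were chosen by their rise in INS, so the INS side of these differences is not independent of that choice. In DEL, 14 of the 15 named genes were called higher, against 10.3% of all features, and Poli was not, at 0.19 ± 0.11.

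**Figure D4:**
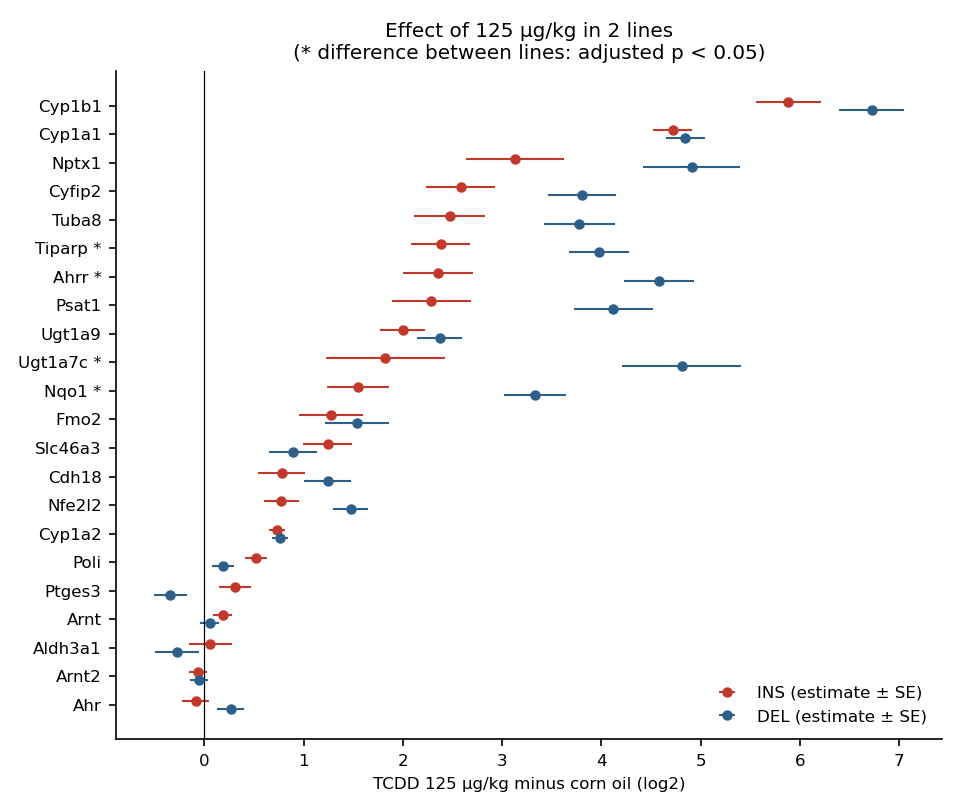
Effect of 125 µg/kg TCDD (horizontal axis, log2 difference from corn oil, point ± SE) in INS (red) and DEL (blue) for the 15 named genes and the other measured genes of the AHR lists. An asterisk marks Tiparp, Ahrr, Ugt1a7c and Nqo1, whose difference between lines had an adjusted p under 0.05.

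The differences between lines that were largest in size concerned genes that were not called in INS. Hsd3b5, a male-biased steroid enzyme, fell by 6.80 ± 0.71 in DEL and differed by -0.99 ± 0.71 in INS, where treated replicate 1 read 8.87 and the others 10.93 to 11.60 (difference 5.80 ± 0.997, adjusted p 0.000609). The uptake transporter Slco1a1 fell by 4.86 ± 0.71 in DEL and differed by -0.41 ± 0.71 in INS. Car1, a carbonic anhydrase, fell by 4.49 ± 0.48 in DEL and differed by -0.59 ± 0.48 in INS. Gpnmb, a marker of lipid-laden macrophages, rose by 5.62 ± 0.59 in DEL and differed by 0.93 ± 0.59 in INS. Of the genes higher in DEL, Apol7c and the platelet chemokine Pf4 differed by 0.07 ± 0.30 and -0.34 ± 0.40 in INS.

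Gene lists were read against the background of 0.0758% called and 43% of features with an estimate above 0. In the AHR core battery, 4 of 6 measured genes were called higher (Cyp1a1, Cyp1a2, Cyp1b1 and Nqo1) and 0 lower, with a median of 1.68 against -0.026 over all features. In the pathway and feedback list, 2 of 7 were called (Ahrr and Tiparp), with a median of 0.31. That count was 1 in 8 of 9 omissions of an array, and the median ran from 0.20 to 0.53. Among 13 other genes known to be induced by TCDD in mouse liver, Fmo2 and Slc46a3 were called, 11 estimates were above 0 and the median was 0.45. The count there was 0 in 7 of 9 omissions. Pmm1 at 0.82 ± 0.25, Notch1 at 0.96 ± 0.32 and the nucleotide sugar enzyme Ugdh at 0.48 ± 0.17 did not pass. Of the 23 genes of the endoplasmic reticulum and integrated stress response, Psat1 was called. In that list 17 estimates were above 0, with a median of 0.20, and 0.12 to 0.27 when 1 array was left out. Of its genes, 6 were higher and 1 lower at an unadjusted p under 0.05, against 3.08% and 2.95% of all features. The list mean, Psat1 included, was at most 8.13 on the corn oil arrays and at least 8.34 on the treated arrays. Of 24 phase II conjugation enzymes, Ugt1a9 was called. The list of 16 pericentral hepatocyte genes had Cyp1a2, and the list of 17 female-biased genes had Fmo2. These lists were drawn up with results of these data known, so their counts are not independent evidence.

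The other 35 lists had 0 genes called in either direction. Among the NRF2 antioxidant genes, 0 of 23 were called, with a median of 0.09. At an unadjusted p under 0.05, 4 were higher and 0 lower, against 3.08% and 2.95% of all features. All treated arrays lay above all corn oil arrays for 3 of them, against 1.16%. Nqo1, which was called, was counted in the AHR core battery and not in this list. The canonical NRF2 target Srxn1 differed by 0.61 ± 0.18 and the transporter Abcc4 by 0.71 ± 0.19. Lists of metabolism had medians of 0.13 for 24 genes of fatty acid and triglyceride synthesis, -0.04 for 28 genes of bile acid synthesis and transport, 0.15 for 19 genes of cholesterol synthesis and uptake, 0.01 for 21 genes of fatty acid oxidation, 0.13 for 18 genes of glucose metabolism and -0.03 for 24 genes of the urea cycle and amino acid breakdown. In DEL, where 8.53% of all features were called lower, the test called 16 genes lower in the first of these, 17 in the second and 16 in the last. Fgf21, a hepatic fasting hormone, differed by 0.96 ± 0.34 in INS without passing. Among 17 male-biased genes, 14 estimates were below 0 with a median of -0.11, and DEL had 14 called lower. The median in INS was -0.01 without treated replicate 1 and -0.20 without treated replicate 4. The plot of the gene lists shows each member.

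**Figure D5:**
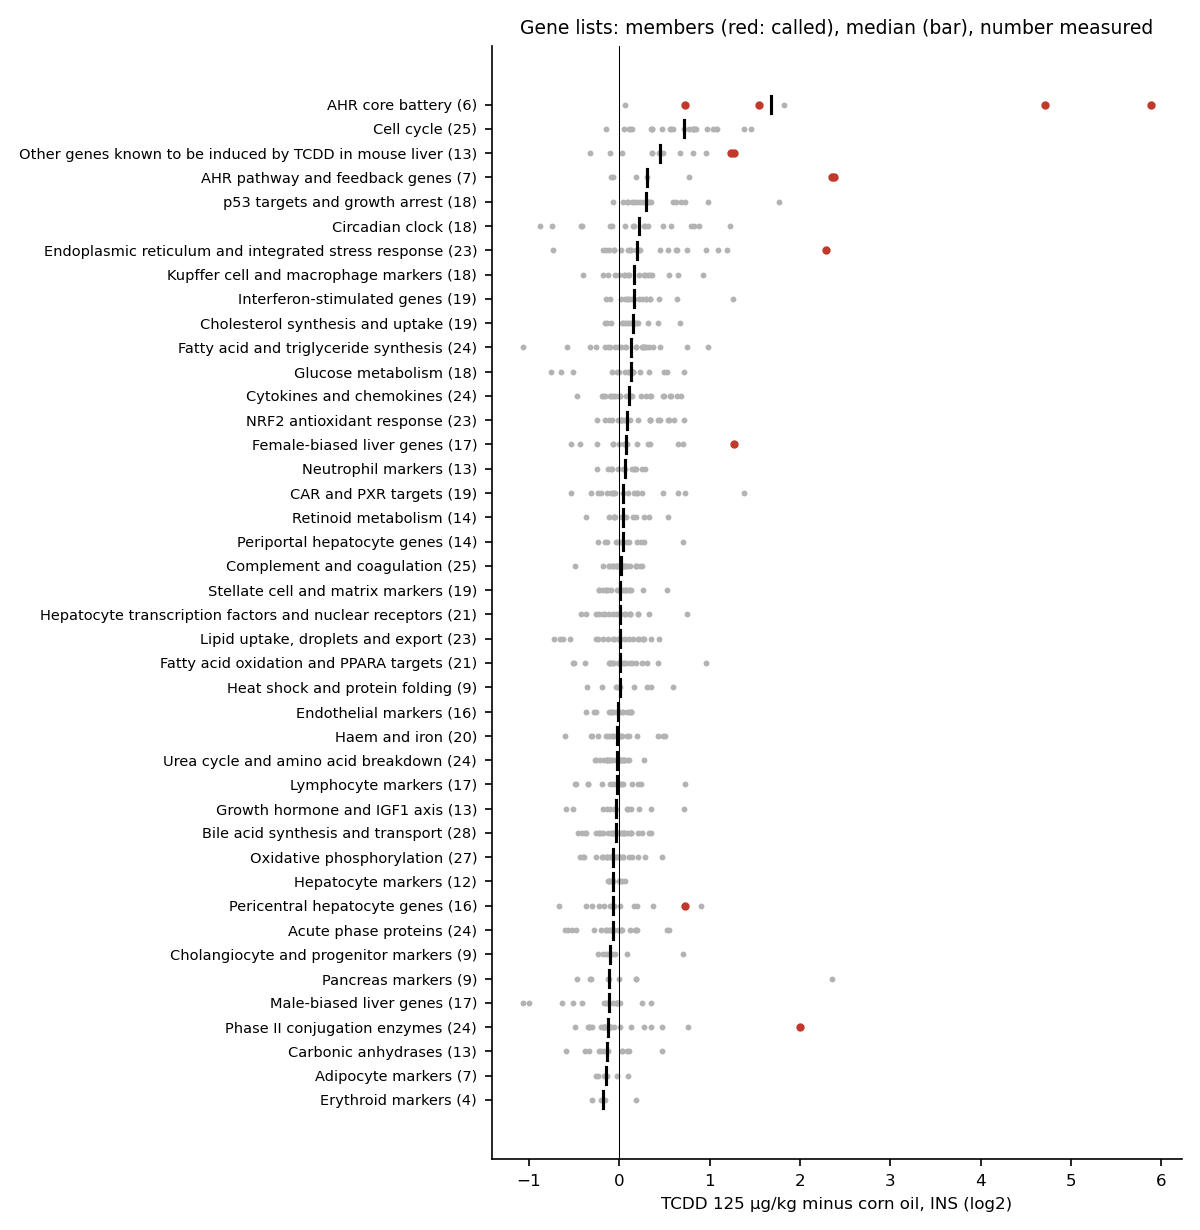
Effect of 125 µg/kg TCDD in INS liver (horizontal axis, log2 difference from corn oil) for each measured member of 42 gene lists (rows, with the number measured), called members in red and the list median as a bar. The AHR core battery has the highest median, 1.68, and most other medians lie close to 0.

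The cell cycle list had 0 of 25 genes called, while its estimates lay mostly above 0. Of the 25, 24 had an estimate above 0, the median was 0.72 and 17 passed an unadjusted p under 0.05, against 3.08% of all features. Ccnb2, a mitotic cyclin, read 5.99, 5.39, 6.70, 6.74 and 5.77 in corn oil and 8.07, 6.84, 8.42 and 6.97 after TCDD, a difference of 1.46 ± 0.34 (adjusted p 0.265). Ccna2, the cyclin of DNA replication and mitotic entry, read 5.22, 4.84, 5.11, 5.52 and 5.02 in corn oil and 7.08, 5.95, 7.11 and 5.97 after TCDD. It differed by 1.39 ± 0.36 (adjusted p 0.364), and in both genes replicates 1 and 3 were the high treated arrays. The mean of the list was 4.87 to 5.23 on the corn oil arrays and 6.23, 5.36, 5.86 and 5.47 on treated replicates 1 to 4.

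Replicate 1, the lowest treated array for most called genes, was thus the highest for the cell cycle list, and it was the highest for 15 of its 25 genes. Without replicate 1 the list had 23 estimates above 0, a median of 0.53 and 11 genes at an unadjusted p under 0.05. At 1000 µg/kg, where 0.407% of features were called higher and 0.464% lower, the median was 0.39 with 0 genes called, and in DEL at 125 µg/kg, where 10.3% of all features were called higher, it was 1.43 with 21 called higher. Of the 18 p53 targets and growth arrest genes, 17 had an estimate above 0 and 0 were called, with Cdkn1a, an inhibitor of cyclin-dependent kinases, at 1.77 ± 0.71 (adjusted p 0.759).

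Immune lists moved with the same array and with corn oil replicate 3. The mean of 19 interferon-stimulated genes was 7.92 on treated replicate 1, against 6.81 to 7.04 on the other treated arrays and 6.81 to 7.15 in corn oil. With replicate 1, 17 of the 19 estimates were above 0 with a median of 0.16, and without it 7 were, with a median of -0.05. The mean of 24 cytokines and chemokines was 7.09 on replicate 1 and 5.62 to 6.24 on the other treated arrays, against 5.86 to 6.82 in corn oil. Its estimates above 0 numbered 15 with replicate 1 and 7 without it. The corn oil value of 6.82 was that of replicate 3, the other corn oil arrays lying at 5.86 to 6.00, and without that array the median went from 0.10 to 0.43. For 17 lymphocyte markers corn oil replicate 3 read 6.34 and the other corn oil arrays 5.01 to 5.34, and the median of -0.03 became 0.22 without it. The part of replicate 1 in the cell cycle values beyond these figures was not tested.

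None of the 10 lists of cell type markers had a called gene in INS at this dose. In bulk liver, a change in the number of cells of a type and a change in RNA per cell cannot be told apart. The mean of 18 Kupffer cell and macrophage markers was 7.31 to 7.51 in corn oil and 7.37 to 7.97 after TCDD, with a median difference of 0.17. The 7.97 was that of treated replicate 1, the other treated arrays reading 7.37 to 7.59. Without replicate 1 the median was 0.10. In DEL, 17 of these 18 were called higher, against 10.3% of all features, and the difference between lines was called for 11, each lower in INS, against 2.9% of all features. For 13 neutrophil markers the mean was 3.59 to 3.85 in corn oil and 3.56 to 4.10 after TCDD. The 4.10 was again that of replicate 1, the other treated arrays reading 3.56 to 3.76. The median of 0.06 became -0.08 without replicate 1. For 7 of these neutrophil markers the difference between lines was called, each lower in INS. Markers of stellate cells, endothelium, lymphocytes, cholangiocytes, erythroid cells and adipocytes had overlapping array means and medians of -0.18 to 0.01. Of the 19 stellate cell and matrix markers, 13 were called higher in DEL. The difference between lines was called for 7 of them, each lower in INS. For each other type in this group it was called for 0 or 1 gene.

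The 9 pancreas markers had a median of -0.11 and 1 member apart from the rest. Ctrb1, chymotrypsinogen, read 3.91, 3.32, 3.72, 3.81 and 3.64 in corn oil and 4.57, 8.12, 6.87 and 4.59 after TCDD. Treated replicates 2 and 3 were high, replicates 1 and 4 only just above corn oil, and the difference of 2.36 ± 0.95 did not pass (adjusted p 0.767). Another acinar gene, Cela1, differed by -0.46 ± 0.15 (adjusted p 0.576) in the opposite direction.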

How the data were processed

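Per the labels, total RNA was extracted from liver with Qiagen RNeasy kits and each animal was hybridised to its own array. What the authors deposited are log2 values with 1 row for each Entrez gene. The submitters' processing notes name RMA, affy 1.44.0 and R 3.1.2. The sources used here do not name the probe-set definition. RMA as usually run pulls arrays to a common distribution, so a shift common to most genes would be lost.

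All 21115 features were used as deposited, with no further scaling or filter. Of these, 20405 carried 1 symbol and 710 none. Two-sided moderated tests of limma 3.58.1 (R 4.3.3) came from lmFit, contrasts.fit and eBayes. The model was fitted to the 22 INS arrays with 5 group means, and to the 43 INS and DEL arrays with 10 group means for the difference between lines. The 12 dose contrasts came from 1 fit to all 60 arrays, repeated on 56. Arrays of rWT and DEL were left out of the first fit because levels differ between lines. A call means an adjusted p under 0.05 (Benjamini-Hochberg, over all features). Effects are given ± SE of the fit. Replicates are separate animals.

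Members, the 42 gene lists (730 of 802 members measured) and tests were chosen with earlier results of these data known. Named genes were features with 1 symbol, not predicted: the measured AHR list genes, up to 15 called rises and 15 called falls with separate groups, up to 4 called (or the 2 largest) members of each list, and up to 5 called genes in each direction for the other comparisons. Deviations of same-numbered corn oil and 125 µg/kg arrays correlated at 0.13, 0.18, 0.35 and -0.10, so numbers were not taken as pairs. Motifs and sequences came from RefSeq tables. Figures were drawn with matplotlib 3.10.9. The script was tested on simulated data. Alternatives covered the arrays in the fit, scaling, dim features, variance model, array weights, the replicate block and single arrays.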

Additional observations from a re-analysis of the deposited data

Results flagged for a closer look

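Ugt1a7c on treated replicate 2 read 8.90, while the other 3 arrays at 125 µg/kg read 7.09 to 7.19. Its gap was 0.941 of the group's range, above Dixon's critical value for 4 samples. It was the only flag among 44 groups of values tested (22 genes in 2 groups), and chance flags about 1 in 20 groups.

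The effect of 125 µg/kg differed between INS and DEL for 4 of the 22 genes tested in this way, each smaller in INS, against 5% of all features in either direction and 2.9% lower in INS. The differences on the log2 scale were -2.99 for Ugt1a7c (adjusted p 0.0311), -2.23 for Ahrr (adjusted p 0.00643), -1.78 for Nqo1 (adjusted p 0.0131) and -1.59 for Tiparp (adjusted p 0.0195), from limma with both lines in 1 fit.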

How the results depend on the processing

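The 16 calls at 125 µg/kg against corn oil became 5 with only the 9 arrays compared, 7 at an adjusted p under 0.01, and 6 to 16 when 1 array was left out. Quantile normalization gave 16 higher and 2 lower. On the 56 arrays without the 4 that went against their label, a setting chosen after seeing the data, there were 28. With the replicate block there were 11, the calls of Nptx1, Ahrr, Slc46a3, Cdh18 and Poli being lost. Numbers were not taken as pairs, since deviations of the 41 same-numbered pairs of INS arrays correlated at -0.45 to 0.41 and for 14 the same number was the best match. The number of matches that chance would give was not worked out. Dbp and Ciart did split replicates 1 and 2 from the rest at 250, 500 and 1000 µg/kg, so the numbers are not shown to be arbitrary. The 1 call of 1000 against 125 µg/kg became 9 with all 60 arrays, 22 with 56, 0 after quantile normalization, 0 with array weights, 6 with the replicate block and 0 to 15 when 1 array was left out. The 1056 calls of INS minus DEL became 642 with all 60 arrays, 1966 with array weights and 458 to 1700 when 1 array was left out. The replicate block gave 1105 there. On the 56 arrays the calls of INS against corn oil were 28, 54, 77 and 344 from the lowest dose up, against 17, 30, 49 and 216 with 60. The slope over 250 to 1000 µg/kg stayed at 0 calls in each alternative run. None of the 15 named called genes changed sign in any alternative setting run for it, and signs turned for uncalled genes alone. Arnt2 was at 0.00038 after quantile normalization and Aldh3a1 at -0.0031 with array weights. When 1 array was left out, Aldh3a1 ran from -0.078 to 0.18, Ahr from -0.18 to 0.015, Hsp90aa1 from -0.58 to 0.22, Fabp4 from -0.49 to 0.0058, Ccl3 from -0.076 to 1.16, Csf3r from -0.094 to 0.52 and Gzma from -0.019 to 1.31. Outside fits with fewer arrays, the cause of these shifts was not tested. With 4 treated arrays, a small change in a variable gene is not detectable.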
